A study of Homo sapiens with 2 samples.

Results

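The cells described here are 61 sorted cells with transcripts of GAD1 (ENSG00000128683) and GAD2 (ENSG00000136750), the genes for the enzymes that make GABA, out of 13958 cells kept from 2 single-cell RNA libraries. They were chosen by their own counts. Kept cells had 1000 or more unique molecules (UMIs), 500 or more detected genes and no more than 10% of UMIs from mitochondrial genes. A kept cell was a member if GAD1 and GAD2 together gave at least 2 UMIs, SLC17A8 gave at most 1 UMI, and fewer than 3 of SLC17A6, LHX1, LHX9, ISL1, MAB21L1 and MAB21L2 had a UMI. These values are descriptions of the choice, not findings. Members were 19 of 6385 kept cells in the library labelled WT (0.298%, exact 95% interval 0.179 to 0.464) and 42 of 7573 in the library labelled FKO (0.555%, 0.400 to 0.749). Intervals throughout cover counting error alone.

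The study differentiated the human embryonic stem cell line WA09 (H9) into serotonin neurons and sorted cells at day 42 by fluorescence of EGFP. The label WT stands for the genotype TPH2-EGFP knockin, and the label FKO for TPH2-EGFP knockin and FOXA2 knockout. EGFP was knocked in at TPH2, so sorting was aimed at cells that had switched that gene on, at that time or earlier. The GABA-related cells are only those that came through this gate. How many sorted cells had never switched TPH2 on was not tested. The paper describes the knockout reporter line as built on a picked clone with a frameshift indel in FOXA2. For some stainings of cells at that day it gives a lower dose of the SHH pathway agonist purmorphamine for WT than for FKO cells. For others it gives both doses, and the labels of the libraries give no dose. Each label is 1 library, so the label cannot be told apart from the clone, the differentiation, its purmorphamine dose and the library.

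GABA neurons make their transmitter with the enzymes encoded by GAD1 and GAD2 and load it into vesicles with the transporter encoded by SLC32A1. In the forebrain, DLX1, DLX2, DLX5 and DLX6 act in their development, whereas in the midbrain and hindbrain the factors GATA2, GATA3, TAL1, SOX14, LHX1, LHX5 and PAX2 mark several GABA lineages. Serotonin neurons use GATA2 and GATA3 too, together with FEV and LMX1B, and make serotonin with TPH2 and DDC.

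FOXA2 (ENSG00000125798), the floor plate transcription factor that was targeted, went against the labels. It had 4.31 counts per 1000000 UMIs (CPM; 375 UMIs in 239 cells, interval 3.89 to 4.77) in the kept cells labelled WT and 22.7 CPM (1517 UMIs in 575 cells, 21.6 to 23.9) in those labelled FKO. Among members it had 3 UMIs in 1 of 19 cells labelled WT and 29 UMIs in 10 of 42 cells labelled FKO, which is 12.4 (2.55 to 36.1) and 49.9 (33.4 to 71.6) CPM. A 3' tag count does not read the indel, so these values check nothing about the mutation. In other cultures, the paper reports FOXA2 protein staining in WT cells and none in the knockout cells, the way the labels say. The label names below are names of libraries. The libraries shared 21 barcode sequences, 6 of them kept in both and none of them a member.

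Depth differed between the libraries. The median kept cell had 12646 UMIs under the label WT and 7122 under FKO, and the median member had 11958 (range 3271 to 25488) and 8999.5 (2268 to 51301). Members labelled WT also had a higher median mitochondrial share, 8.47% against 5.14%, as did all kept cells of that library, 7.85% against 5.31%. None of the 360 kept cells labelled WT with at most 5% was a member, against 21 of 3167 labelled FKO. With each cell thinned to 2000 UMIs and the rule applied to the thinned counts, members were 3 of 6342 (0.0473%, 0.00976 to 0.138) and 10 of 7457 (0.134%, 0.0643 to 0.246). At equal depth members were thus fewer in both libraries. Their share was still larger in the library labelled FKO, but on these few cells the intervals of the libraries overlapped.

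The line around the members is thin. Of the kept cells, 6260 labelled WT and 7421 labelled FKO had no UMI of GAD1 or GAD2, and these are the comparison cells below. Just below the GAD1 and GAD2 minimum were 103 and 97 cells with 1 such UMI, of which 50 and 78 met the other limits. Just inside were 6 and 19 members with exactly 2. A further 7 and 12 members had 3, and 6 and 11 had 4 or more, up to 10 under the label WT and 8 under FKO. By gene, 6 and 14 members had GAD1 alone, 8 and 13 GAD2 alone, and 5 and 15 both.

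The other limits took out a minority of the cells with at least 2 GAD1 and GAD2 UMIs. Of 22 cells labelled WT with at least 2 GAD1 and GAD2 UMIs, 3 were left out, all for SLC17A8, a vesicular glutamate transporter found in some serotonin neurons, with 11 to 29 UMIs. Of 55 labelled FKO, 13 were left out, 12 for SLC17A8 and 2 for the LIM-homeodomain and related genes, so that 1 cell failed both. Just inside these limits, 4 members in each library had 1 SLC17A8 UMI, and 3 labelled FKO had 2 of the 6 genes.

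SLC32A1 (ENSG00000101438), which the rule did not use, was found in a minority of the members and in almost none of the comparison cells. It had a UMI in 6 of 19 members labelled WT (31.6%, 12.6 to 56.6) and 8 of 42 labelled FKO (19.0%, 8.60 to 34.1). In the comparison cells it had a UMI in 4 of 6260 (0.0639%) and 5 of 7421 (0.0674%). Pooled levels were 24.7 against 0.0470 CPM in the library labelled WT, a log2 ratio of 9.04 (6.96 to 11.31), and 22.3 against 0.0777 CPM in the other, 8.17 (6.59 to 10.01). The transporter was thus concentrated in the members of both libraries, but most members had none. After thinning each cell to 2000 UMIs it was left in 0 of 19 members (upper limit 15.8%, taken as 3/n here and below for 0 of n cells) and 4 of 42 (9.52%). Of all kept cells with an SLC32A1 UMI, 8 of 12 and 12 of 17 had a GAD1 or GAD2 UMI. The members are called GAD1/GAD2 cells here, by the genes that chose them.

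**Figure D1:**
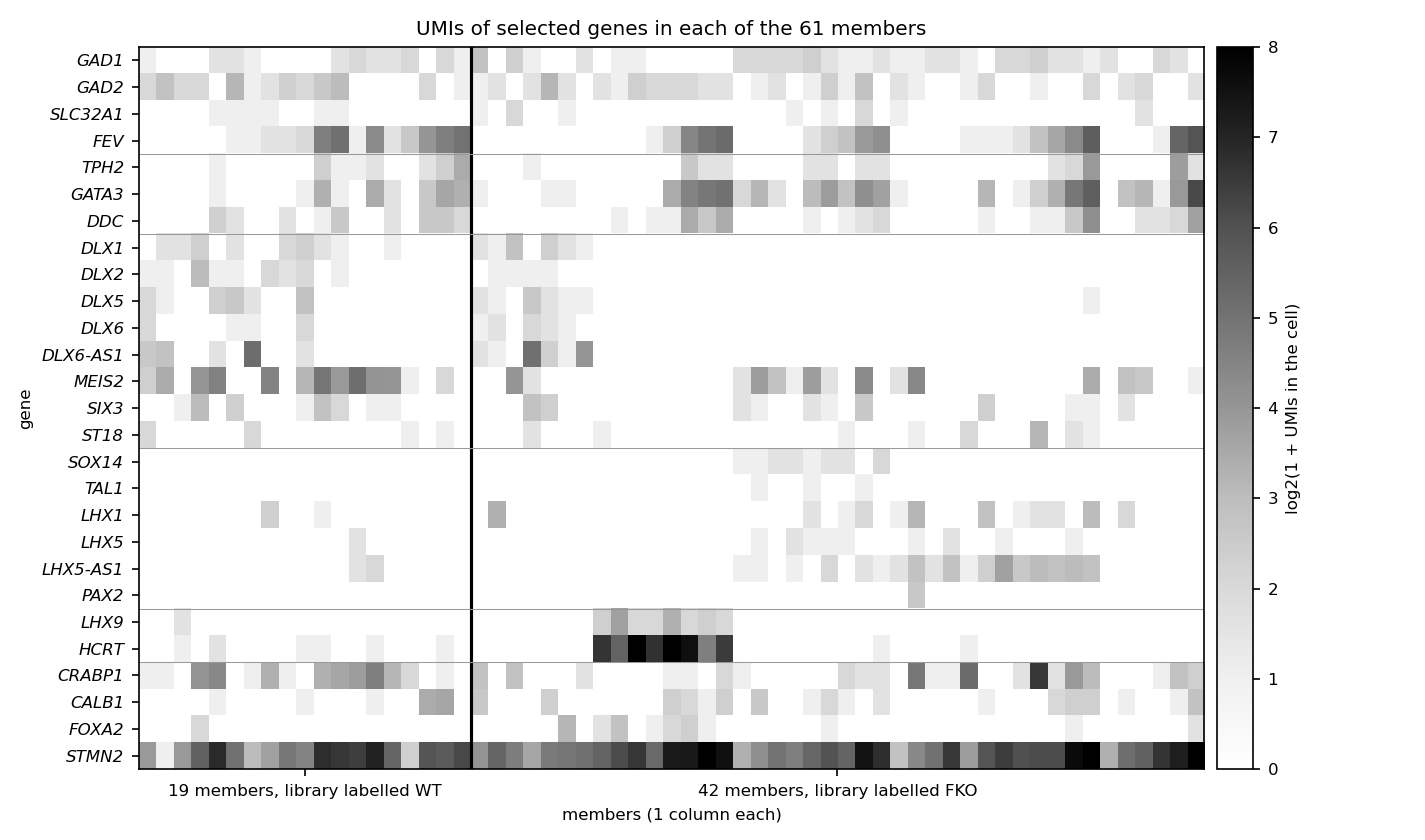
UMIs of selected genes in each of the 61 members, 1 column per cell. Columns are ordered by the DLX, HCRT, SOX14 or TAL1, and LHX5, LHX5-AS1 or PAX2 sets described in the text, then the remaining cells, and within each by FEV.

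The heatmap of the members shows that most of these genes are confined to blocks of cells, while STMN2, a neuronal microtubule regulator, runs through all 61. Neither library holds 1 uniform group of GAD1/GAD2 cells.

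FEV (ENSG00000163497), the serotonin neuron transcription factor, splits the members by the rule. It was at 0 in 5 of 19 members labelled WT (26.3%, 9.15 to 51.2) and in 21 of 42 labelled FKO (50%, 34.2 to 65.8). Among comparison cells it was at 0 in 112 (1.79%) and 591 (7.96%). Members without FEV were shallower, with median UMIs of 6707 and 5279 against 12174.5 and 20175 in members with FEV. In cells thinned to 2000 UMIs, FEV had a UMI in 52.6% and 33.3% of members against 89.3% and 76.7% of comparison cells. By the rule on thinned counts, 2 of 3 and 8 of 10 members lacked FEV. FEV was therefore seen less often in members of both libraries at equal depth too.

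Just at the line of this split stood 3 and 5 members with 1 FEV UMI. Members with FEV had a median of 4 FEV UMIs (1 to 33) under the label WT and 6 (1 to 59) under FKO. Per cell that was a median of 385 and 544 CPM, against 1591 and 902 in comparison cells. Most members with FEV carried less of it than the typical sorted cell.

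Low FEV counts also occurred in cells of another type. Cells with at least 10 UMIs of COL1A1, COL1A2 and COL3A1, the fibrillar collagens of mesenchyme, numbered 21 and 138, with median depths of 26689 and 12159.5 UMIs. FEV had a UMI in 21 of 21 and 81 of 138 (58.7%) of them, at a median of 114 and 115 CPM. Of the members with FEV, 8 of 14 and 21 of 21 were at or below the highest collagen cell, and 1 and 2 at or below the median collagen cell. GAD1 or GAD2 had a UMI in 0 of 21 collagen cells (upper limit 14.3%) and 5 of 138 (3.62%), against 1.96% and 2.01% of all kept cells. How much of the FEV or GAD1 and GAD2 signal in a cell came from ambient RNA was not tested.

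**Figure D2:**
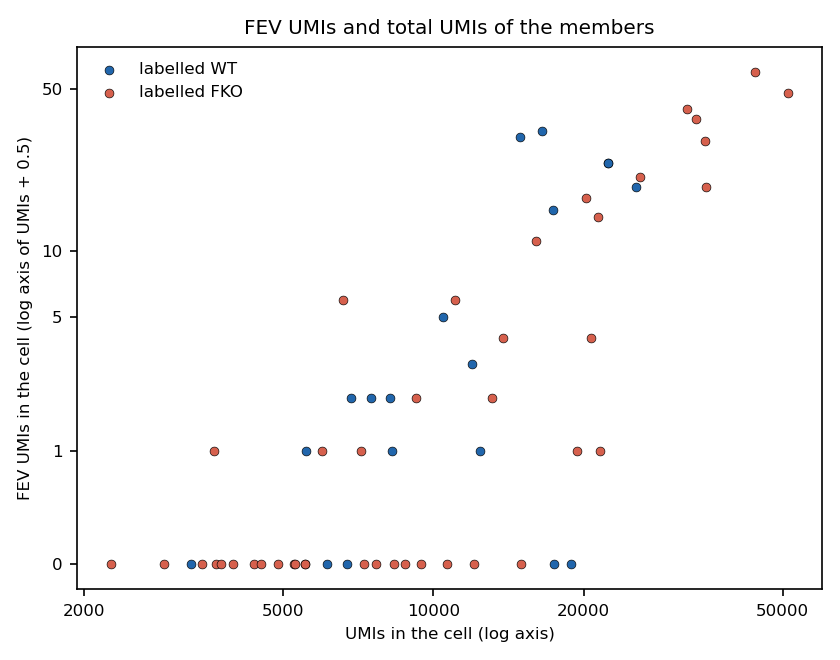
FEV UMIs against total UMIs of the 61 members, both on log axes, with cells at 0 drawn at the bottom.

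The plot of FEV against depth shows the deepest members labelled FKO among those with the most FEV. Of the members, 1 of 19 (5.26%) and 14 of 42 (33.3%) had more than 2 times the median UMIs of their library, against 4.60% and 12% of kept cells. Only 1 of these 15 lacked FEV, a cell labelled FKO, and without such deep cells the FEV-zero share labelled FKO was 71.4%. Doublet scores marked 4 of 19 members (21.1%, against 15.3% of kept cells) and 3 of 42 (7.14%, against 8.19%), none of them without FEV. The part of doublets and depth in these results was not tested.

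Genes outside the rule that share cells fall into a few sets, which were chosen after the values were seen and carry no test. The DLX set has at least 2 UMIs over DLX1, DLX2, DLX5, DLX6 and DLX6-AS1, and the HCRT set has at least 10 UMIs of HCRT (ENSG00000161610), the gene for the lateral hypothalamic peptide hypocretin. The SOX14 or TAL1 set, and the LHX5, LHX5-AS1 or PAX2 set, have at least 1 UMI of a named gene. Together these 4 sets held 14 of 19 members labelled WT and 36 of 42 labelled FKO.

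The DLX set held 12 of 19 members labelled WT and 7 of 42 labelled FKO. FEV was at 0 in 5 of the 12 and in 7 of the 7. In the library labelled WT, these cells had 342 CPM of GAD2 and 950 of MEIS2 (ENSG00000134138), a homeodomain factor of several forebrain GABA lineages. In the library labelled FKO they had 284 CPM of GAD1 and 328 of GAD2. The SLC32A1 UMIs in the library labelled WT were all in this set, in 6 of its 12 cells, and 3 of the 7 labelled FKO had it too. Every FEV-zero member labelled WT was a DLX cell, while 14 of 21 labelled FKO were not.

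The HCRT set was seen in the library labelled FKO alone, in 8 members against 0 of 19 (upper limit 15.8%). All 8 had GAD2, and 3 had no FEV. LHX9 (ENSG00000143355), a LIM-homeodomain factor known from hypocretin neurons, had a UMI in all 8, at 278 CPM (199 to 377), although the rule limits this gene together with 5 others. FOXA2 had a UMI in 6 of the 8, and so had NKX2-2, a ventral progenitor factor. SLC32A1, MEIS2 and SIX3 were at 0 in all 8 (upper limit 37.5%). The 13 cells labelled FKO with as much HCRT and no GAD1 or GAD2 UMI carried the same companions, with LHX9 in 13 and FOXA2 in 11. These members were therefore a GAD2-positive portion of a larger group of HCRT cells in that library. Their median depth was 16407 UMIs and none was marked as a doublet.

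The SOX14 or TAL1 set held 9 members, all labelled FKO, of which 4 had no FEV. All 9 had GAD1, 8 had GATA3 (ENSG00000107485) and 7 had MEIS2, at 255 CPM of GAD1, 789 of GATA3 and 650 of MEIS2. SOX14 and TAL1 act with GATA factors in midbrain and hindbrain GABA neurons, and GATA3 is shared with serotonin neurons. Of the 9, 8 were also in the LHX5, LHX5-AS1 or PAX2 set, which held 2 members labelled WT and 20 labelled FKO, 19 of the 20 with GAD1. The DLX and HCRT sets shared no cell with each other or with these. At least 10 FEV UMIs were seen in 6 and 10 members, some of them in the other sets, and 2 and 4 members were in no set.

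**Figure D3:**
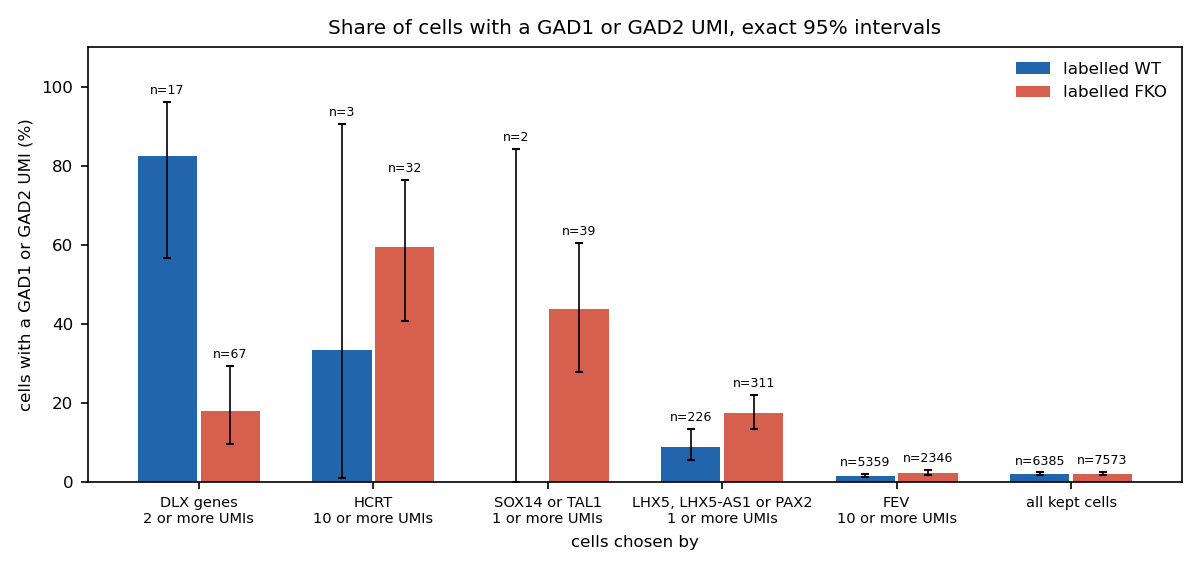
Share of kept cells with a GAD1 or GAD2 UMI among cells chosen by each set's genes, with exact 95% intervals and the number of cells. The SOX14 or TAL1 bar labelled WT stands for 0 of 2 cells.

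Turned around, the set genes mark cells with GAD1 or GAD2 UMIs to different degrees. Of kept cells with at least 2 DLX UMIs, 14 of 17 labelled WT (82.4%, 56.6 to 96.2) and 12 of 67 labelled FKO (17.9%, 9.61 to 29.2) had a GAD1 or GAD2 UMI. The DLX genes thus pointed to these cells in the library labelled WT, whereas in the other most DLX cells were without both enzymes, 16 of those 55 with collagen. Of cells with at least 10 HCRT UMIs it was 1 of 3 and 19 of 32 (59.4%, 40.6 to 76.3), and of cells with SOX14 or TAL1 it was 0 of 2 and 17 of 39 (43.6%, 27.8 to 60.4). For LHX5, LHX5-AS1 or PAX2 the share was 20 of 226 (8.85%) and 54 of 311 (17.4%), and for at least 10 FEV UMIs 1.51% and 2.26%.

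Set beside the comparison cells of their own library, members of both libraries had more of MEIS2, DLX1, DLX5, SIX3, CRABP1 and CDH8, among others, and less of CALB1. MEIS2 was at 799 against 36.9 CPM in the library labelled WT, a log2 ratio of 4.44 (4.22 to 4.65), and 201 against 8.76 CPM in the other, 4.52 (4.22 to 4.81). Neuronal maturation genes differed little, and serotonergic genes were lower without passing 2-fold in both libraries. Of 6184 genes with at least 20 CPM in either arm of each library, 39 (0.631%) were past 2-fold higher in both libraries and 9 (0.146%) lower, with 1 member UMI worth 4.12 and 1.72 CPM. The median log2 ratio of all these genes was 0.01 in each library.

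The named genes were those of 17 lists and the strongest genes past 2-fold in both libraries with at least 50 CPM, 7 higher and 3 lower here. CRABP1 (ENSG00000166426), which binds retinoic acid in the cytoplasm, was at 486 against 105 CPM, 2.21 (1.93 to 2.47), and 390 against 96.6, 2.01 (1.82 to 2.21), with 97 of its 227 UMIs labelled FKO in 1 cell. CDH8 (ENSG00000150394), a neuronal cadherin, was at 57.7 against 13.7 CPM, 2.07 (1.20 to 2.83), and 163 against 37.0, 2.14 (1.83 to 2.44). CRABP1 and CDH8 were about 4-fold higher in members of each library.

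DLX6-AS1 (ENSG00000231764), a long noncoding RNA of the DLX5 and DLX6 locus, had 206 CPM in members labelled WT against 1 UMI in all their comparison cells, 14.10 (11.55 to 19.43). In the library labelled FKO it had 96.3 against 0.420 CPM, 7.84 (7.16 to 8.56). Single cells held much of it, 35 of 50 UMIs in 1 member labelled WT and 33 of 56 in 1 labelled FKO. DNER (ENSG00000187957), a transmembrane ligand of Notch, was higher by 2.16 (1.5 to 2.75) and 1.17 (0.82 to 1.5). ONECUT1 (ENSG00000169856), a transcription factor of early neurons, was higher by 1.72 (0.80 to 2.50) and 1.07 (0.79 to 1.35), and IGFBPL1 (ENSG00000137142) by 1.20 (0.32 to 1.95) and 1.03 (0.55 to 1.48). Of these 7 higher genes, the noncoding DLX transcript had the highest ratio in each library and the greatest share of its UMIs in 1 cell.

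CALB1 (ENSG00000104327), the calcium buffer calbindin, was the most abundant of the 3 lower named genes, at 98.9 against 235 CPM, -1.25 (-1.89 to -0.68), and 91.1 against 206, -1.18 (-1.60 to -0.79). CDYL2 (ENSG00000166446), a chromodomain protein, was lower by -1.57 (-2.70 to -0.64) and -1.17 (-1.67 to -0.71). COL5A2 (ENSG00000204262), a fibrillar collagen, was lower by -3.02 (-6.07 to -1.17), on 2 UMIs, and -1.18 (-1.94 to -0.52). All 3 genes had lower pooled levels in members than in the comparison cells of each library.

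Outside that rule, other genes past 2-fold in both libraries with at least 10 UMIs in the higher arm were picked after the values were seen. PCP4 (ENSG00000183036), a calmodulin regulator, was higher by 4.75 and 2.94, VSNL1 (ENSG00000163032), a neuronal calcium sensor, by 2.98 and 1.10, FOXP2 (ENSG00000128573), a forkhead factor, by 2.96 and 1.28, and TENM2 (ENSG00000145934), a teneurin, by 1.40 and 1.17. STC1 (ENSG00000159167), a secreted glycoprotein, was lower by -2.54 and -2.22 and MEF2A, a neuronal MADS-box factor, by -1.69 (-3.97 to -0.14), on 3 UMIs, and -1.19 (-2.0 to -0.49). With FEV in both arms PCP4 turned to -0.095 in the library labelled FKO. With the minimum of 10 UMIs, 18 higher and 8 lower genes outside the rule remained.

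**Figure D4:**
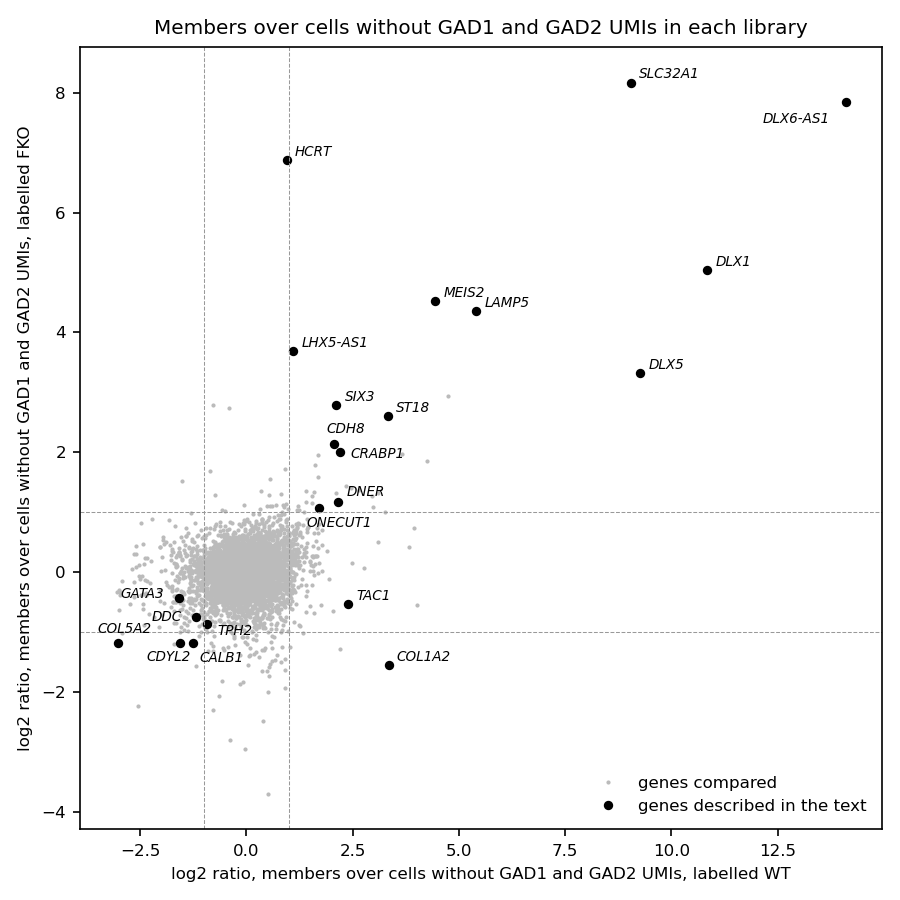
Log2 ratio of members over cells without GAD1 and GAD2 UMIs in the library labelled WT (horizontal) and FKO (vertical), for genes with at least 20 CPM in either arm of each library, with the rule genes GAD1, GAD2, SLC17A8, FEV and LHX1 not drawn. Dashed lines mark 2-fold.

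The plot of the 2 libraries' ratios shows DLX1, DLX5, DLX6-AS1, SLC32A1 and MEIS2 far from the cloud in both, HCRT and TAC1 past 2-fold in 1 library alone, and COL1A2 past it in opposite directions. Of the 43 GABA neuron transcription factors, 13 could be compared outside the rule, of which 6 were past 2-fold higher and none lower, with median log2 ratios of 0.74 and 0.13. DLX1 (ENSG00000144355) was at 86.5 against 0.0470 CPM, 10.85 (9.28 to 12.85), and 27.5 against 0.839, 5.03 (4.13 to 5.86). DLX5 (ENSG00000105880) was higher by 9.26 (8.17 to 10.42) and 3.32 (2.38 to 4.14). SIX3 (ENSG00000138083), a factor of the anterior forebrain, was higher by 2.11 (1.47 to 2.69) and 2.79 (2.20 to 3.33), and ST18 (ENSG00000147488), a zinc finger factor, by 3.33 (2.11 to 4.33) and 2.61 (1.86 to 3.28). Together with MEIS2 and DLX6-AS1 these make up the 6. DLX2 and DLX6 were below the CPM floor in the library labelled FKO, with ratios of 9.61 and 4.62, and 9.46 and 5.71. Over the whole list, the summed level was 2443 against 1619 CPM and 2400 against 2329, with 19 and 5 genes at 0 in the members.

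GABA handling covered 12 genes, with 6 compared outside the rule, SLC32A1 past 2-fold higher and none lower, and medians of 0.23 and -0.02. Its summed level with the rule genes was 672 against 336 CPM and 811 against 558. Beyond the enzymes and the vesicular transporter, the machinery of GABA uptake and breakdown therefore stood near the level of the other sorted cells. The 20 GABA-A receptor subunits and partners gave 5 compared, none past 2-fold in both libraries, medians of 0.06 and 0.24 and sums of 284 against 325 and 815 against 639 CPM. The 5 chloride transporters gave 2 compared, none past 2-fold in both libraries, medians of -1.05 and -0.12 and sums of 157 against 243 and 282 against 287 CPM.

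None of the 11 serotonergic identity genes compared outside the rule, of 20, was past 2-fold in both libraries, but their medians were -1.27 and -0.43. The summed level with FEV was 1422 against 3346 CPM and 1979 against 2835. TPH2 (ENSG00000139287), which makes serotonin's precursor and drives the reporter, was at 103 against 197 CPM, -0.94 (-1.56 to -0.37), and 89.4 against 163, -0.87 (-1.29 to -0.48). DDC (ENSG00000132437), the decarboxylase that follows it, was lower by -1.19 (-1.77 to -0.67) and -0.74 (-1.08 to -0.42). GATA3 was lower by -1.59 (-2.02 to -1.18) in the library labelled WT and by -0.43 (-0.58 to -0.28) in the other. The serotonergic programme was present in members at a reduced pooled level, more so in the library labelled WT.

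By cell, TPH2 had a UMI in 8 of 19 members (42.1%) and 13 of 42 (31.0%), against 72.7% and 54.4% of comparison cells, and at 2000 UMIs in 21.1% and 7.14% against 28.6% and 23.6%. DDC had a UMI in 9 of 19 and 19 of 42 (45.2%) against 88.4% and 72.0%, and at equal depth in 15.8% and 14.3% against 40.4% and 35.5%. GATA3 had a UMI in 9 of 19 (47.4%) and 27 of 42 (64.3%) against 95.5% and 91.3%, and at equal depth in 21.1% and 38.1% against 66.7% and 75.5%. MEIS2 ran the other way, with 13 of 19 (68.4%) and 15 of 42 (35.7%) against 22.9% and 3.45%, and at equal depth 52.6% and 26.2% against 5.82% and 1.18%. A smaller share of members than of comparison cells had DDC and GATA3 and a larger share had MEIS2, in both libraries and with depth equalised. For TPH2 the share was smaller in both libraries as counted, and at equal depth in the one labelled FKO. In the library labelled WT at equal depth, the interval of the members' TPH2 share, 6.05 to 45.6%, included the comparison share.

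Among 28 peptides and interneuron markers, 6 could be compared, with medians of 1.97 and 0.59 and sums of 2217 against 830 and 1430 against 1754 CPM. LAMP5 (ENSG00000125869), a membrane protein of forebrain interneurons, was higher by 5.41 (4.59 to 6.14), with 14 of 17 UMIs in 1 cell, and 4.35 (3.33 to 5.25). CBLN2 (ENSG00000141668), a secreted synapse organiser, was higher by 1.55 (-0.08 to 2.78), on 5 UMIs, and 1.27 (0.55 to 1.90), and CALB1 was the lower one. TAC1, the substance P precursor and the most abundant of the list at 1673 and 920 CPM, had 343 of its 406 UMIs labelled WT in 1 member. HCRT, which is on none of the 17 lists and not in these sums, had 2125 CPM in members labelled FKO, and was at 0.95 in the library labelled WT and 6.87 (6.76 to 6.99) in the other. LHX5-AS1 (ENSG00000257935), a noncoding RNA beside LHX5, was added to the lists after the values were seen and was higher by 1.10 (-0.52 to 2.33), on 5 UMIs, and 3.68 (3.31 to 4.04). Without the deepest member its ratio labelled WT was -0.059.

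Glutamate, catecholamine and cholinergic genes were described as lists too. The 6 glutamate transmitter genes gave 3 compared outside the rule, none past 2-fold in both libraries, medians of -0.01 and 0.06 and sums of 128 against 249 and 272 against 350 CPM. Of 13 catecholamine and cholinergic genes none reached the floor, 10 and 9 were at 0, sums were 33.0 against 30.0 and 24.1 against 11.7 CPM, and the most abundant were TH at 20.6 and ISL1 at 12 CPM. The 7 LIM-homeodomain and excluded genes, all used by the rule, summed to 74.2 against 172 and 215 against 151 CPM, with LHX1 past 2-fold higher and SLC17A8 lower by choice of the members.

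Neuronal maturation genes were level, with none of 15 compared of 16 past 2-fold in both libraries, medians of -0.11 and 0.07 and sums of 11813 against 13541 and 19781 against 19949 CPM. STMN2 was at -0.19 and 0.02, with a UMI in all 61 members. Progenitor and proneural genes gave 7 compared of 18, none past 2-fold in both, medians of 0.73 and 0.15 and sums of 1570 against 1188 and 1071 against 1390 CPM. The 10 cell cycle genes gave 1 compared, HMGB2, not past 2-fold in both, with 7 and 4 at 0 and sums of 37.1 against 123 and 44.7 against 118 CPM. The members thus had neuronal maturation genes near the level of the comparison cells, and a lower cell cycle sum.

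Position and other cell types made up the remaining lists. The 9 floor plate genes gave 1 compared, none past 2-fold in both libraries, sums of 202 against 54.1 and 101 against 78.7 CPM, and FOXA2 at 49.9 CPM as the most abundant in the library labelled FKO. The 19 hindbrain position genes gave 3 compared, none past 2-fold in both libraries, medians of -0.27 and -0.54, sums of 177 against 132 and 220 against 320 CPM, 14 at 0 in each library, and EN1 as the most abundant at 119 and 99.7 CPM. Most hindbrain position genes were thus at 0 among the members, whose pools held 242688 and 581660 UMIs. These zeros were not set beside zeros in the comparison cells, so they say nothing particular about the members. EN1, a midbrain and anterior hindbrain factor, gave most of the list's sum in the library labelled WT.

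The 8 mesenchymal genes gave 1 compared, COL1A2, past 2-fold in each library in opposite directions, 4 at 0 in each library and sums of 53.6 against 36.9 and 41.3 against 250 CPM, with COL1A2 the most abundant at 24.7 and 29.2. The 10 glia genes gave 1 compared, none past 2-fold in both libraries, 6 and 5 at 0, sums of 45.3 against 31.4 and 67.1 against 103 CPM and MBP the most abundant at 24.7 and 48.1. The 13 stress and immediate early genes gave 5 compared, none past 2-fold in both libraries, medians of 0.12 and -0.15, sums of 429 against 361 and 373 against 387 CPM and HSPA5 the most abundant at 177 and 162. Their part in the result was not tested.

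Across classes of cells with more GAD1 and GAD2 UMIs, with the same limits on SLC17A8 and the LIM-homeodomain genes, the GABA-related genes had higher levels and more cells lacked FEV. The classes of 0, 1, 2 to 3 and 4 to 9 UMIs held 4690, 50, 13 and 5 cells labelled WT and 6436, 78, 31 and 11 labelled FKO. MEIS2 was at 34.0, 286, 756 and 1021 CPM in the library labelled WT and 8.54, 26.8, 89.1 and 542 in the other. The 5 DLX genes summed to 0.333, 15.2, 441 and 555 CPM and to 4.20, 33.5, 160 and 194. Both MEIS2 and the DLX genes were higher in each next of these classes of each library. The single cell labelled WT with 10 UMIs broke that order for MEIS2, with 0 UMIs, and had 9 DLX UMIs and 1 FEV UMI. Between the classes of 2 to 3 and 4 to 9 UMIs, the intervals of the DLX sums overlapped in both libraries. Those of MEIS2 overlapped in the library labelled WT.

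SLC32A1 followed the same order at 0.0634, 2.77, 16.5 and 35.8 CPM and 0.0736, 1.91, 11.4 and 55.6, on 2 to 8 UMIs per class. HCRT did so in the library labelled FKO alone, at 19.4, 671, 2036 and 2396 CPM, against 14.0, 43.0, 33.1 and 17.9, and all 345 HCRT UMIs of the last class were in 1 of its 11 cells. FEV was at 1536, 1018, 568 and 1057 CPM in the library labelled WT and 905, 622, 576 and 514 in the other. The share of cells without FEV was 2.22, 8, 23.1 and 40.0% and 8.48, 25.6, 48.4 and 54.5%. In the class of 4 to 9 UMIs the intervals of this share were wide, 5.27 to 85.3% and 23.4 to 83.3%. The FEV-zero share was higher in each next of these 4 classes, though the single cell with 10 UMIs had FEV, while the pooled FEV level broke that order in the smallest class drawn for the library labelled WT.

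**Figure D5:**
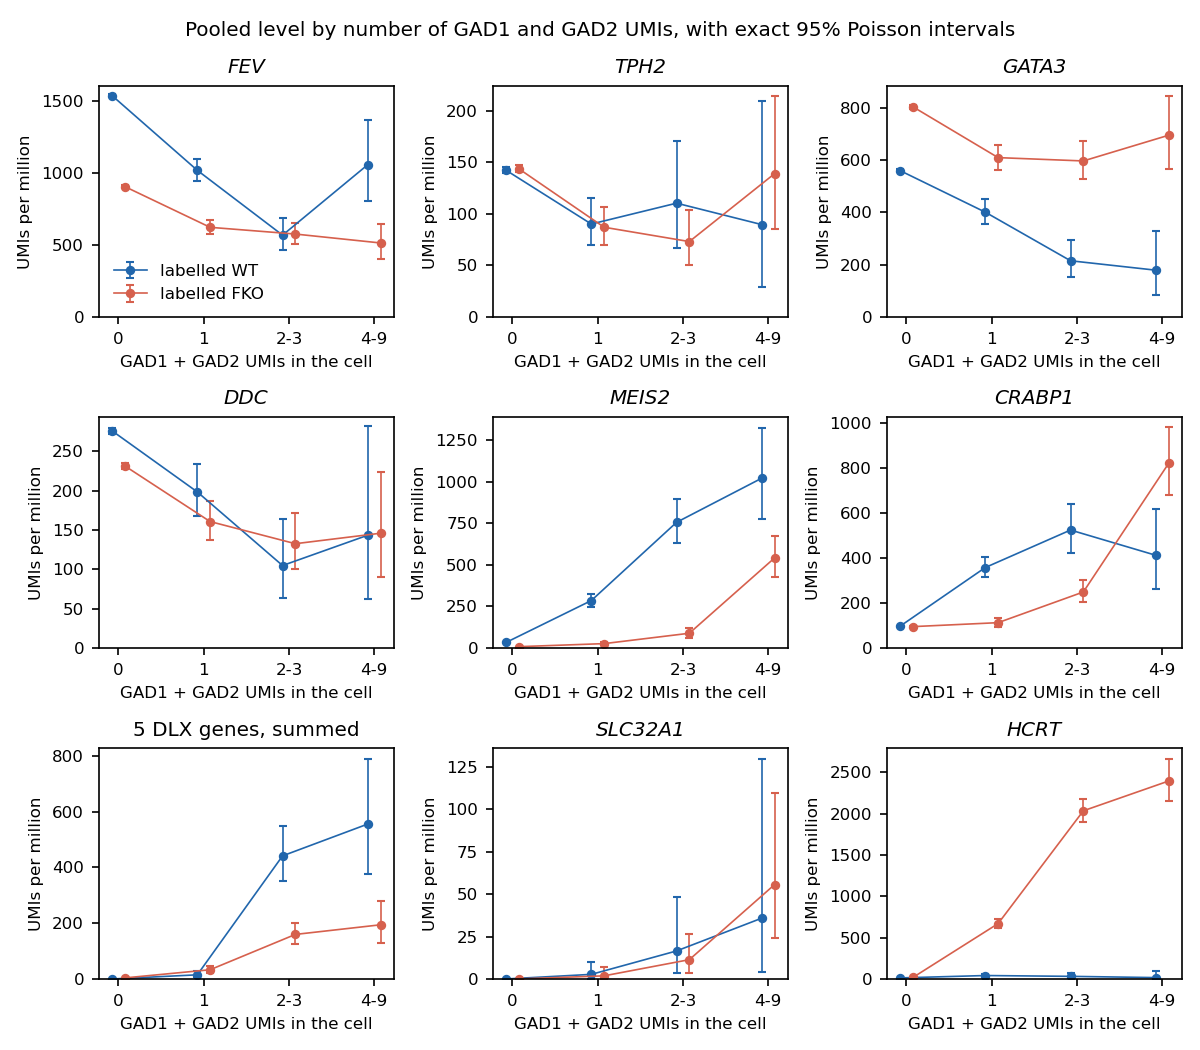
Pooled levels by the number of GAD1 and GAD2 UMIs in the cell, with exact 95% Poisson intervals. The class of 10 or more, 1 cell labelled WT, is not drawn.

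The panels of the class plot place TPH2, GATA3 and DDC beside FEV, and CRABP1 beside MEIS2. The class of 1 UMI, the 50 and 78 cells nearest to the members, lay between the comparison cells and the members for MEIS2, the DLX genes and SLC32A1.

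Within the members, those without FEV had more of DLX1, DLX2, DLX5 and DLX6 than those with FEV, and less of CHGB, DNAJC12 and TPH2, among others. CHGB (ENSG00000089199), the dense-core vesicle protein chromogranin B, was at 95.3 against 778 CPM in the library labelled WT, -3.03 (-4.67 to -1.77), and 312 against 1553 in the other, -2.32 (-2.80 to -1.87). Of 5227 genes, 61 (1.17%) were past 2-fold higher in both libraries and 97 (1.86%) lower, and the medians of all genes were -0.14 and -0.08. The arm without FEV held 52459 and 134677 UMIs, so 1 UMI was worth 19.1 and 7.43 CPM, and with at least 10 UMIs in the higher arm 1 higher gene and 64 lower ones, FEV of the rule included, remained.

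Among the lower named genes, CHGB, DNAJC12, GCHFR, PCSK1 and CPLX2 had the most counts in the library labelled FKO. DNAJC12 (ENSG00000108176), a co-chaperone of the aromatic amino acid hydroxylases, was at 76.3 against 662 CPM, -3.12 (-5.02 to -1.73), and 111 against 517, -2.21 (-3.07 to -1.46). GCHFR (ENSG00000137880), the regulator of the enzyme that starts synthesis of their cofactor tetrahydrobiopterin, was lower by -1.73 (-3.66 to -0.28) and -1.99 (-3.16 to -1.02). TPH2 had 1 UMI in each library in these cells, -2.73 (-8.09 to -0.11) and -3.94 (-9.27 to -1.40). PCSK1 (ENSG00000175426), a prohormone convertase, was lower by -1.84 (-4.96 to 0.16), on 2 UMIs, and -1.85 (-2.95 to -0.93). CPLX2 (ENSG00000145920), a complexin of synaptic release, was lower by -2.05 (-7.44 to 0.65), on 1 UMI, and -2.69 (-4.34 to -1.42). TPH2 thus had 1 UMI in the FEV-zero members of each library, and DNAJC12 and GCHFR had lower levels. PTS (ENSG00000150787), which acts in synthesis of the same cofactor, did not follow them, at 0.72 (-0.52 to 1.86) and 0.09.

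The other lower named genes rested on few counts in the library labelled WT. EN1 (ENSG00000163064) was lower by -1.90 (-5.01 to 0.10), on 2 UMIs, and -4.10 (-9.43 to -1.57), on 1. BLVRA (ENSG00000106605), which makes bilirubin, was lower by -1.73 (-7.14 to 1.03) and -1.79 (-4.92 to 0.22), and CRBN (ENSG00000113851), a ubiquitin ligase receptor, by -1.84 (-7.25 to 0.89) and -1.97 (-3.90 to -0.53). MAPK8IP1 (ENSG00000121653), a kinase scaffold, was lower by -2.14 (-7.53 to 0.54) and -1.81 (-4.16 to -0.15). BLVRA, CRBN and MAPK8IP1 each had 1 UMI in the FEV-zero members labelled WT.

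On the higher side the DLX genes stood out from the list of GABA neuron transcription factors, of which 14 were compared, 4 were higher (DLX1, DLX2, DLX5 and DLX6) and 3 lower (GATA3, EN1 and NR2F2), with medians of 0.63 and 1.14. DLX1 was higher by 1.16 (-0.32 to 2.54) in the library labelled WT and at least 17.7-fold in the other, where members with FEV had 0 UMIs. DLX2 (ENSG00000115844) was higher by 1.86 (0.44 to 3.28) and at least 4.43-fold, DLX6 (ENSG00000006377) by 1.12 (-1.57 to 3.48) and at least 9.96-fold, and DLX5 by 1.16 (-0.32 to 2.54) and 5.32 (2.56 to 10.73). DLX6-AS1 was not among the 4, at 0.35 (-0.69 to 1.29) in the library labelled WT and at least 61.95-fold higher in the other. The DLX genes were thus nearly confined to FEV-zero members in the library labelled FKO, and were shared by members with and without FEV in the other.

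The remaining higher named genes had 3 to 6 UMIs in the library labelled WT. AFF3, a transcription elongation factor, was higher by 2.60 (0.23 to 5.28) and 1.62 (0.42 to 2.82), and GADD45G, a stress-response gene, by 1.27 (-0.99 to 3.35) and 1.73 (0.22 to 3.24). FGF12, an intracellular partner of sodium channels, was higher by 1.86 (-0.57 to 4.28) and 1.47 (0.38 to 2.54), and MBP, the myelin basic protein gene with products in neurons as well, by 1.86 (-1.04 to 4.76) and 1.32 (0.10 to 2.49). The rest were BTBD3 (1.86 and 1.38), FAM118A (1.86 and 1.58), TMEM106C (2.44 and 1.41), DIPK2A (1.44, -1.33 to 4.01, and 1.47), RASGEF1B (2.44, -0.68 to 6.03, and 1.56) and SPACA9 (3.44, -0.20 to 9.16, and 1.54). Most of these intervals in the library labelled WT include no difference. For BTBD3, DIPK2A, FGF12, RASGEF1B and SPACA9 those UMIs came from 1 cell.

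GATA3 was lower by -3.73 (-9.06 to -1.18), on 1 UMI, and -1.68 (-2.26 to -1.15), and NR2F2 (ENSG00000185551), a nuclear receptor, by -2.10 (-3.77 to -0.82) and -1.09 (-1.62 to -0.60). Of 8 serotonergic genes compared outside the rule, TPH2 and GATA3 were lower and none higher, with medians of -0.87 and -1.56. The sums of the whole list, FEV included, were 419 against 1698 and 490 against 2427 CPM. Of the larger sums, 857 and 729 CPM were FEV, which the split itself sets to 0 in the other arm. Of 15 maturation genes, CHGB and SYT1 were lower and none higher, with medians of -0.21 and -0.18. SYT1 (ENSG00000067715), the calcium sensor of vesicle release, was lower by -1.14 (-1.67 to -0.65) and -1.29 (-1.54 to -1.04), while SNAP25, a vesicle fusion protein, was at 0.05 and 0.49 and STMN2 at -0.12 and -0.14. FEV-zero members were therefore nearly as rich in STMN2 as the others and had less CHGB and SYT1.

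SLC32A1 split differently in the libraries, with a UMI in 1 of 5 FEV-zero and 5 of 14 other members labelled WT, and in 6 of 21 and 2 of 21 labelled FKO. Its ratios were -0.46 (-6.03 to 2.70) and 2.90 (1.06 to 5.05). Members without FEV were also the shallower ones, and the part of depth in this comparison was not tested.

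FEV-zero members were last set beside cells that lacked both FEV and the GAD enzymes, 112 labelled WT and 591 labelled FKO, which holds FEV at 0 on both sides. DLX1, DLX2, DLX5, DLX6-AS1, SIX3 and MEIS2 were higher in the members of both libraries, and CCND1, ANXA2, QKI and CD99 were among the lower genes. MEIS2 was at 991 against 264 CPM, 1.91 (1.45 to 2.35), and 535 against 43.6, 3.62 (3.19 to 4.03). Of 5142 genes, 103 (2.0%) were past 2-fold higher in both libraries and 107 (2.08%) lower, with medians of all genes of -0.01 and 0.03. With at least 10 UMIs in the higher arm, 6 higher genes outside the rule remained, among them DLX6-AS1, MEIS2 and C12orf73 (1.57 and 1.39).

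DLX6-AS1 was at least 73.2-fold higher in the library labelled WT, where the other cells had 0 UMIs, and higher by 6.99 (6.07 to 8.03) in the other. DLX1 was at least 45.1-fold higher and higher by 4.60 (3.53 to 5.65), and DLX5 at least 45.1-fold and 2.35 (1.33 to 3.26). SIX3 was higher by 3.49 (2.0 to 4.91) and 2.89 (1.96 to 3.74). These factors thus had higher pooled levels in the members than in other FEV-zero cells, although in the library labelled FKO 14 of 21 FEV-zero members were outside the DLX set and 11 of 21 had no MEIS2 UMI. On the transcription factor list, 6 of 12 compared were higher and 1, EN1, lower (-1.13, -4.20 to 0.77, and -2.14, -7.45 to 0.37), with medians of 1.79 and 1.44.

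HCRT was higher by 2.66 (0.12 to 4.72), on 3 UMIs, in the library labelled WT. In the other it was at 3616 against 44.7 CPM, 6.34 (6.08 to 6.60), with all 487 UMIs in 3 cells and 345 in 1 of them. Without the HCRT set it was at -0.69 there. Of the other higher named genes, PCP4 was at 2.70 and 2.52, ARPP21, a cAMP-regulated phosphoprotein of striatal neurons, at 2.49 and 1.92, MIR7-3HG, a microRNA host gene, at 1.87 and 2.77, PNMA6A at 2.38 and 1.90 and RASGEF1B at 3.08 (0.45 to 5.31) and 2.56. These single-gene values stand on 3 to 8 UMIs in the library labelled WT.

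CCND1 (ENSG00000110092), the G1 cyclin, was lower by -2.05 (-4.34 to -0.48), on 3 UMIs, and -5.07 (-10.37 to -2.59), on 1. ANXA2 (ENSG00000182718), a membrane-binding annexin, was lower by -1.98 (-3.43 to -0.84) and -4.75 (-10.06 to -2.27), on 1 UMI, QKI (ENSG00000112531), an RNA-binding protein of glia and progenitors, by -3.22 (-8.54 to -0.73), on 1, and -2.13 (-3.45 to -1.08), and CD99 (ENSG00000002586), a surface glycoprotein, by -2.0 (-3.88 to -0.62) and -2.86 (-4.74 to -1.5). LUM (ENSG00000139329), a matrix proteoglycan, was lower by -2.27 (-5.33 to -0.39), on 2 UMIs, and at least 5.48-fold, on 0 UMIs. These 5 genes had less signal in the members of each library. The other lower named genes, on 0 to 2 UMIs each in the members, were PON2 (-2.14, -5.20 to -0.26, and -3.20, -6.25 to -1.34), RCN1 (-2.46, -7.78 to 0.05, and -3.95, -9.26 to -1.46) and BTG3 (-2.01, -7.33 to 0.52, and -1.99, -5.04 to -0.12). XBP1, a factor of the unfolded protein response, was at -1.94 (-7.27 to 0.59) and -1.97 (-5.03 to -0.10), and RAB13, a vesicle GTPase, at -1.94 (-7.27 to 0.59) and at least 4.06-fold lower.

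By list, 2 of 8 progenitor genes were lower, NES (-1.32, -3.62 to 0.26, and -3.52, -6.56 to -1.66) and HES6 (-1.97 and -1.35), with medians of -0.33 and -0.95. The 1 cell cycle gene compared, HMGB2, was lower (-2.51, -7.82 to 0.01, and -1.72, -4.01 to -0.16), and of 3 mesenchymal genes compared LUM was lower, with medians of -0.34 and -2.45 and sums of 95.3 against 339 and 7.43 against 1690 CPM. None of 15 maturation genes was past 2-fold in both, with medians of 0.16 and 0.76 and sums of 10179 against 8156 and 17108 against 10303 CPM, and none of 8 serotonergic genes, with medians of -0.44 and -0.45 and sums of 419 against 482 and 490 against 520 CPM. Both groups of FEV-zero cells had little of the serotonergic programme, and the members had higher sums of the maturation genes in both libraries.

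Among FEV-zero members thinned to 2000 UMIs, the genes that varied most from cell to cell, as variance over mean, were looked up among 1999 ranked genes, whose medians were 1 and 0.95. Among the first 15 were MALAT1 (80.1 and 34.3), TAC1 (47.0 and 6.42), NNAT (6.65 and 6.0), GNAS (5.70 and 14.1), PLS3 (8 and 4.25), STMN2 (4.11 and 3.45), FTL (3.30 and 3.82), VIM (5.96 and 3.17), TMSB4X (3.01 and 5.21), DLX6-AS1 (3 and 5.85), MAP1B (2.56 and 4.74), TUBA1A (3.77 and 2.51), NEFL (2.25 and 12.7) and GAP43 (3.46 and 2.23). DLX6-AS1 thus varied between FEV-zero members of each library, and the TAC1 value labelled WT came from 1 cell.

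Between the libraries, members labelled FKO had more of GATA3, LHX5-AS1 and HCRT and less of MEIS2 and the DLX genes than members labelled WT, beside a median log2 ratio of 0.39 over 7760 genes. The same genes had a median of 0.42 in comparison cells. GATA3 was higher by 1.62 (1.19 to 2.08) among members and 0.46 in comparison cells, LHX5-AS1 by 2.61 (1.32 to 4.27) and 0.02, and HCRT by 6.20 (5.16 to 7.52) and 0.28, on 7 and 1236 UMIs. These 3 genes differed between the members of the libraries by more than between their comparison cells. SOX14 had 0 and 14 UMIs in members, at least 1.95-fold higher, and was higher by 2.65 in comparison cells as well.

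MEIS2 was lower by -1.99 (-2.33 to -1.65) among members and -2.07 in comparison cells, so its difference was that of the whole libraries. DLX1 was lower by -1.65 (-2.69 to -0.65) among members and higher by 4.16 in comparison cells, DLX5 by -1.95 (-3.07 to -0.89) and 3.99, and DLX6-AS1 by -1.10 (-1.67 to -0.52) and 5.16. The DLX genes thus ran in opposite directions in and outside the members. TPH2 (-0.20 and -0.27) and CRABP1 (-0.32 and -0.12) were near level in both. With 1 library per label these differences were not tested.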

How the data were processed

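The UMI counts of each barcode were taken as the authors deposited them, 11052 and 8806 barcodes, counted with Cell Ranger (7.0 in the notes, 7.1.0 in the header) on GRCh38. Python 3.11.15 with numpy 2.4.6, scipy 1.17.1, pandas 2.3.3 and scanpy 1.11.5 was used. The members and lists were chosen with earlier results of these data known. UMIs were pooled over the cells of an arm and scaled to counts per 1000000 UMIs (CPM). Log2 ratios carry exact conditional 95% intervals. A gene was compared with at least 20 CPM in either arm of each library, and called when past 2-fold in the same direction in both. Where an arm had 0 UMIs, 3 were put in its place and the ratio is given as a bound. Named genes were those of 17 lists (249 genes) and, per comparison, at most 12 higher and 10 lower called genes with at least 50 CPM in the higher arm, ordered by the smaller of the 2 ratios, without mitochondrial, ribosomal protein and rule genes. The genes with the highest variance over mean, 15 in number, had a mean of at least 0.05 UMIs. Doublet scores came from Scrublet, at 0.8% per 1000 deposited barcodes. The code was tested on simulated data.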

Additional observations from a re-analysis of the deposited data

Results flagged for a closer look

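For some genes of the lists the 2 libraries were past 2-fold in opposite directions. COL1A2, a collagen, was at 3.35 in members over comparison cells labelled WT, with all 6 UMIs in 1 member, and at -1.55 in those labelled FKO. JUN, an immediate early gene, was at 1.48 and -1.52 in FEV-zero over other members, and at 1.13 and -1.50 in FEV-zero members over FEV-zero cells without GAD1 and GAD2. TAC1 was at 4.30 and -2.15 in the former comparison and 4.84 and -1.05 in the latter, with 343 UMIs labelled WT in 1 member. LHX5-AS1 was at -1.41, a bound on 0 UMIs, and 1.20 in the latter. The difference between the libraries was not tested.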

How the results depend on the processing

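With other choices than those above, the member shares, the FEV-zero shares and the counts of genes past 2-fold in both libraries moved as follows, beside 48, 158 and 210 genes in the comparisons of members with other cells, of FEV-zero with other members, and of FEV-zero members with FEV-zero cells. A mitochondrial limit of 5% left 0% members in the library labelled WT, so that no gene comparison could be made. At least 4000 UMIs gave 323 genes (215 higher, 108 lower) in the last comparison. Leaving out the highest Scrublet scores gave 73 (49, 24) in the first. At least 4 GAD1 and GAD2 UMIs gave shares of 0.0940% and 0.145% and 121 (80, 41) in the first. Without limits on SLC17A8 and the LIM-homeodomain genes the first gave 31 (27, 4). A split at 1 against 2 FEV UMIs gave 240 (136, 104) in the second. Mean CPM over cells gave 118 (60, 58) in the first and 328 (135, 193) in the second. A floor of 5 CPM gave 188 (134, 54), 243 (143, 100) and 397 (288, 109), a floor of 50 CPM 13 (9, 4), 81 (25, 56) and 111 (48, 63), and 3-fold 21 (19, 2), 37 (18, 19) and 52 (34, 18). Thinning to 2000 UMIs gave member shares of 0.0473% and 0.134% and FEV-zero shares of 66.7% and 80.0%.

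After seeing the data, 5 choices were added. Leaving out cells above 2 times the median UMIs gave an FEV-zero share of 71.4% in the library labelled FKO and 134 genes (64, 70) in the first comparison. At least 10 UMIs in the higher arm gave 29 (20, 9), 65 (1, 64) and 114 (7, 107). With FEV in both arms, PCP4 in members labelled FKO turned to -0.095. Without the HCRT members, HCRT in FEV-zero members labelled FKO turned to -0.69 against FEV-zero cells. Without the deepest member, LHX5-AS1 in members labelled WT turned to -0.059. Of 1897 single-gene ratios recomputed, 1692 stayed, 202 moved and 3 reversed, and of the other values 68 stayed, 28 moved and 0 reversed. The same limits on comparison cells, a mitochondrial limit of 20% and scaling to the median gene moved none of these counts or shares. The cause was not tested.

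The limits are those of 61 cells from 2 libraries. No paired analysis was possible because each label has 1 library and the labels give no replicate numbers. Counts of few UMIs in few cells set most single-gene values, and 1 cell can carry a gene. FOXA2 went against the labels, so library names are used. Protein and GABA itself were not analysed here.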

Other observations

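Several markers of particular forebrain and cholinergic neurons were at 0 among the members. NKX2-1 and RAX (hypothalamus and ventral forebrain), PVALB, VIP, NPY and CCK (interneurons) and CHAT (cholinergic neurons) had 0 UMIs in all 61 (upper limit 4.92%). They were rare among all 13958 kept cells too, with a UMI in 0 (RAX) to 35 (CCK) of them, so these zeros say nothing particular about the members. These genes were looked up after the sets had been seen. Single cells stood out beside this. In the library labelled FKO, 1 member had 10 UMIs of SST, the somatostatin precursor, with 7 of the DLX genes, 15 of MEIS2 and 3 of SLC32A1, and 1 member had 3 UMIs of SLC6A5, the glycine transporter. PNOC, the nociceptin precursor, had 2 UMIs in 1 member labelled WT and 8 UMIs in 3 labelled FKO.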
